A study of Mus musculus with 28 samples.

Results

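The genes described here are 8 transcripts by which regulatory T cells are commonly read, namely Foxp3, Ikzf2, Il2ra, Icos, Ccr8, Tnfrsf4, Tnfrsf18 and Tnfrsf9. They were taken by name from the 55341 gene names of the count matrices by a rule with no threshold on their values, although earlier results of these data were known when they were chosen, and all 8 passed the filter on low counts. RNA had been sequenced in bulk from 28 whole AB1-HA tumors, a mouse mesothelioma line carried under the skin of female BALB/c.AusBP mice aged 8 to 10 weeks, with each tumor from a different mouse. Mice had received PBS as the control (4 tumors), immune checkpoint blockade (ICB, 5 tumors), 5-FU (5 tumors), cisplatin (4 tumors), 5-FU+ICB (5 tumors) or cisplatin+ICB (5 tumors). ICB consisted of 100 µg of anti-CTLA-4 given once together with 100 µg of anti-PD-L1, which was then repeated in 2 further doses spaced 2 days apart. The antimetabolite 5-FU was dosed at 75 mg/kg into a vein and the platinum compound cisplatin at 6 mg/kg into the peritoneum, and tumors were collected at 7 days. The comparisons ask how the transcripts of regulatory T cells stood in the tumor after each single agent and each combination, and how they stood relative to transcripts of T cells at large. All groups carried the same transplanted line at 1 site and were seen at 1 time point, and a bulk tumor cannot tell fewer or more cells of a type apart from less or more RNA per cell.

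Regulatory T cells are CD4 T cells that restrain other lymphocytes, and FOXP3 is the transcription factor that fixes their identity. They take up interleukin-2 through a receptor that contains IL2RA (CD25), and the signal passes through STAT5, which keeps Foxp3 expressed. In tumors these cells often also carry the chemokine receptor CCR8, the costimulatory receptor ICOS and receptors of the TNF family, but activated conventional T cells, NK cells and some myeloid cells can make several of the same receptors. CTLA-4, the target of an antibody used here, is itself abundant on regulatory T cells.

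Total estimated counts per tumor lay between 23541733 and 33950805, so that 3 counts corresponded to 0.0822 to 0.159 CPM (counts scaled to the size of the library), and the lowest count of any of the 8 genes in any tumor was 8, for Foxp3 and for Ccr8. The summed level of 9 T cell markers was 32.9 to 53.7 CPM in PBS tumors and 154 to 587 CPM in ICB tumors. Of 7 markers of mesothelioma, Msln, which codes for mesothelin, averaged 181 CPM, whereas Upk3b (mean 0.00864 CPM) and Krt18 did not pass the filter. Cisplatin+ICB tumor 1 stood apart, with mesothelioma markers at 905 CPM against 235 to 329 CPM in the other 4 tumors of its group, and endothelial markers at 27.1 CPM against 99.9 to 164 CPM. In 5-FU+ICB tumor 5, markers of lymph node stroma and venules summed to 800 CPM and B cell markers to 733 CPM, against 1.18 to 12.0 and 17.1 to 78.6 CPM in the other 4, and its mitochondrial share of counts was 16.1% against 2.33% to 4.94%. Skeletal muscle markers summed to 3922 CPM in that tumor (1.18 to 767 CPM in the other 4) and to 2910 CPM in ICB tumor 3 (0.731 to 206 CPM in the other 4). By group they lay at 88.0 to 153 CPM in PBS and, overlapping with these, at 6.11 to 1212 CPM in 5-FU tumors (median 1023). Their median log2 fold changes were 2.36, 2.68 and 3.29 after ICB, 5-FU and 5-FU+ICB, with 0 of 4 called. ICB tumor 2 had keratinocyte markers at 430 CPM against 0.680 to 9.59 CPM in the rest of its group, and 5-FU+ICB tumor 2 had the fewest T cell marker counts of its group (62.7 CPM). Their part in the results was not tested beyond leaving each tumor out.

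In the GENCODE M21 annotation of GRCm38, Foxp3 (ENSMUSG00000039521.13) lies at chrX:7573644-7595245 on the plus strand. It overlaps Flicr on the same strand and Ppp1r3f, Ccdc22 and Gm36995 on the other, and all of its values, like those of Il2ra and Tnfrsf18, were split estimates rather than whole counts. Across the 28 tumors the levels of these 4 genes had Pearson correlations of -0.75 to -0.50 with that of Foxp3, which does not show how reads were shared out between them. Ikzf2 lies at chr1:69531214-69687245 on the minus strand, Il2ra at chr2:11642807-11693193, Icos at chr1:60977927-61000320 and Ccr8 at chr9:120092114-120094906, all 3 on the plus strand. The 3 TNF receptor genes are all on the plus strand of chromosome 4, Tnfrsf9 at chr4:150914562-150946102, Tnfrsf4 at chr4:156013843-156016612 and Tnfrsf18 at chr4:156026164-156028895, and only 9551 bases separate the last of these from Tnfrsf4. Tnfrsf18 lies within the antisense gene Gm16008 (0.250 to 1.68 CPM), Tnfrsf9 shares 28781 bases with Camta1 on the other strand (6.01 to 19.9 CPM), and Ikzf2 overlaps the antisense gene Gm29114 (at most 0.0359 CPM). The use of strand in the quantification is not given in the sources used here, so the values of genes with a partner on the other strand are uncertain to that extent. Per kilobase of merged exons, the mean level over the 6 groups was highest for Tnfrsf9 (22.8 CPM per kb), followed by Tnfrsf18 (8.54), Icos (7.61), Tnfrsf4 (6.45), Il2ra (4.50), Ccr8 (2.53), Foxp3 (2.19) and Ikzf2 (0.789). On the same scale Cd3e, a chain of the T cell receptor complex, was at 6.50 and Cd8a, the coreceptor chain of cytotoxic T cells, at 16.0 CPM per kb.

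RefSeq promoter windows of GRCm38.p6 were found for 6 of the 8 genes, and the 250 bases before a start are printed for the pair whose levels ran most apart across tumors (Foxp3 and Tnfrsf9) and for the neighbours whose levels ran closest together (Tnfrsf4 and Tnfrsf18). Capitals mark matches, on either strand, to the letters of motifs bound by STAT factors (TTCNNNGAA), NFAT (GGAAA) or AP-1 (TGANTCA), all of them activated in stimulated T cells. Foxp3 and Tnfrsf9 have 2 windows each, and the one with more matches is shown. The regions are chrX:7580233-7580482 for Foxp3, chr4:150927749-150927998 for Tnfrsf9, chr4:156013445-156013694 for Tnfrsf4 and chr4:156026072-156026321 for Tnfrsf18, each on the plus strand.
Foxp3: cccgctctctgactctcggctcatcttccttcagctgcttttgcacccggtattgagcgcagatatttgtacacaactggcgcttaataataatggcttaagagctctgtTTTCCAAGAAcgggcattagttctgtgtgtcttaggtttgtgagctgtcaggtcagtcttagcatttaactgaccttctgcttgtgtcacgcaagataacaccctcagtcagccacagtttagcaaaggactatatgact
Tnfrsf9: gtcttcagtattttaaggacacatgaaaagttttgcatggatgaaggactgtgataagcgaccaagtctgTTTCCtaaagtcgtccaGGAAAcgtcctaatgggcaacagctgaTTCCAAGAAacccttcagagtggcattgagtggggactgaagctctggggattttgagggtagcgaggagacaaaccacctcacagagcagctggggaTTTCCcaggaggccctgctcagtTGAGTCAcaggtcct
Tnfrsf4: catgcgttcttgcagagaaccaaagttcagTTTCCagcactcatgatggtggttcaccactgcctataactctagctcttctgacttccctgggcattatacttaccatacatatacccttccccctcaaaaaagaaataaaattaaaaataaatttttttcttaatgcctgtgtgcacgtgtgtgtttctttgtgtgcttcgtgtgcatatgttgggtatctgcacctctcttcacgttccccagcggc
Tnfrsf18: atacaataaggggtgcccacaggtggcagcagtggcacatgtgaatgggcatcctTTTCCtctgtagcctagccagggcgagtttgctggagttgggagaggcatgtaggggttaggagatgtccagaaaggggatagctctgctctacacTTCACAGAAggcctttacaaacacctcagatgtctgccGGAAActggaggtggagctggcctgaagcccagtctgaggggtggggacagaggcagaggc
The Foxp3 window held the STAT letters TTCCAAGAA from base -139 before the start, overlapping by 4 bases an NFAT match that begins at -140, and the Tnfrsf9 window held the same 9 letters from -136, with 3 NFAT matches and an AP-1 match (TGAGTCA) at -15. The Tnfrsf18 window held a STAT match (TTCACAGAA) at -99 and 2 NFAT matches, and the Tnfrsf4 window only 1 NFAT match, at -220. In windows of 300 bases, 250 before and 50 after the start, the STAT letters occurred in 8.30% of all 32851 windows, the NFAT letters in 61.3% and the AP-1 letters in 7.81%. Forkhead (GTAAACA, 3.65%) and RUNX (TGTGGT, 16.8%) letters were searched in the same way, and the printed stretches held none of them. A narrow form of the NF-kB consensus, which occurred in 0.411% of all windows, was held by 0 of the windows of the 8 genes. Its wide form, chosen after the sequences had been seen, occurred in 8.46% of all windows, and of the printed stretches only that of Tnfrsf9 held it, as 2 matches from -43 and -42 that run over the NFAT match at -38. These matches describe letters only, and no binding was measured.

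After ICB alone, 7 of the 8 genes rose against PBS, all but Tnfrsf4. A gene was called changed where the edgeR quasi-likelihood test gave a Benjamini-Hochberg adjusted p under 0.05 and the log2 fold change exceeded 0.5 in size, and 19.0% of all 17916 genes tested were called higher by that rule (37.8% in either direction). For 6 of the 8 genes every ICB tumor lay above every PBS tumor, which held for 16.8% of all genes. The median log2 fold change of the 8 genes was 2.15, against -0.03 over all genes tested. After 5-FU alone, 5 genes rose (Foxp3, Ikzf2, Il2ra, Icos and Ccr8), where 9.98% of all genes were called higher and 23.0% in either direction. Those 5 were also the genes without overlap between 5-FU and PBS tumors (10.4% of all genes were higher without overlap), and the median over the 8 genes was 1.77 against -0.01 over all genes. After 5-FU+ICB, all 8 rose, against 21.9% of all genes called higher and 40.7% called in either direction. Here 4 of the 8 did not overlap with PBS (11.4% of all genes), and the median was 2.52 against -0.04. Without ICB tumor 2 or ICB tumor 3, 6 genes stayed called after ICB, all but Tnfrsf4 and Tnfrsf18 (30.5% and 32.1% of all genes were called in those fits). Without 5-FU+ICB tumor 5 all 8 stayed called after 5-FU+ICB (36.8% of all genes), with log2 fold changes of 1.54 (Tnfrsf9) to 3.57 (Ccr8) and edgeR adjusted p of 0.000778 to 0.0206. These comparisons share the 4 PBS tumors and are therefore given side by side only.

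**Figure D1:**
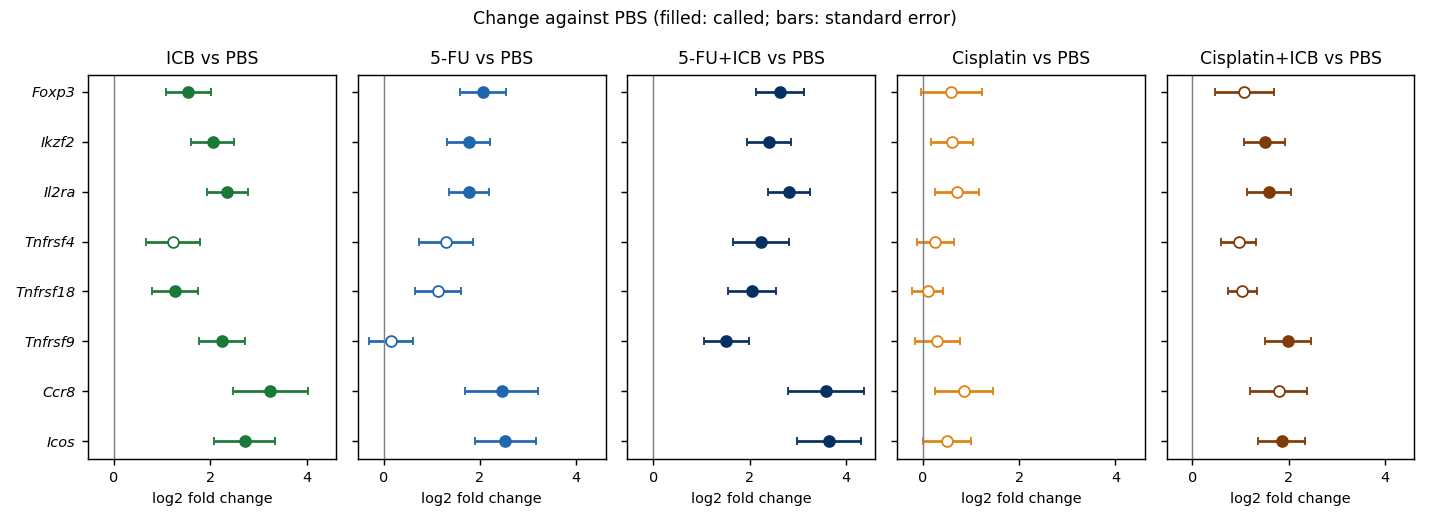
Log2 fold change of each of the 8 genes against PBS (x axis) after each of the 5 treatments, 1 panel a treatment, with filled points for genes called by edgeR and bars of 1 standard error. All 8 points are filled after 5-FU+ICB and none after cisplatin, and Tnfrsf9 is near 0 after 5-FU but not after the 3 treatments that contain ICB.

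Foxp3 was at 2.27, 1.46, 4.99 and 5.12 CPM in the 4 PBS tumors (3.46 ± 1.87, SD, n = 4). It was at 6.10, 15.8, 10.7, 5.51 and 10.4 CPM in ICB tumors, at 11.8, 7.23, 24.4, 8.03 and 18.8 CPM in 5-FU tumors, and at 28.1, 8.59, 25.2, 15.2 and 26.2 CPM in 5-FU+ICB tumors. Every tumor of these 3 treatments exceeded the highest PBS tumor, and the 3 highest values were in 5-FU+ICB tumors. The rise was 2.92-fold after ICB (log2 fold change 1.55 ± 0.47, SE, edgeR adjusted p = 0.0147), 4.18-fold after 5-FU (2.07 ± 0.48, edgeR adjusted p = 0.00847) and 6.20-fold after 5-FU+ICB (2.63 ± 0.49, edgeR adjusted p = 0.00108). The call for ICB was lost without PBS tumor 1 (log2 fold change 1.40, edgeR adjusted p = 0.0504) and without PBS tumor 2 (1.30, edgeR adjusted p = 0.0532), the tumors with the least Foxp3 among the controls. Foxp3 was at 8.66, 3.20, 5.06 and 3.82 CPM in cisplatin tumors, and at 0.424, 6.41, 9.58, 7.42 and 12.2 CPM in cisplatin+ICB tumors. Cisplatin tumors overlapped PBS, and cisplatin+ICB held both the lowest value of the whole series and 4 tumors above every control. For cisplatin+ICB the log2 fold change was 1.08 ± 0.62 (edgeR adjusted p = 0.313), and without tumor 1 of that group, the one with the most mesothelioma marker RNA, it was 1.47 (edgeR adjusted p = 0.0130).

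**Figure D2:**
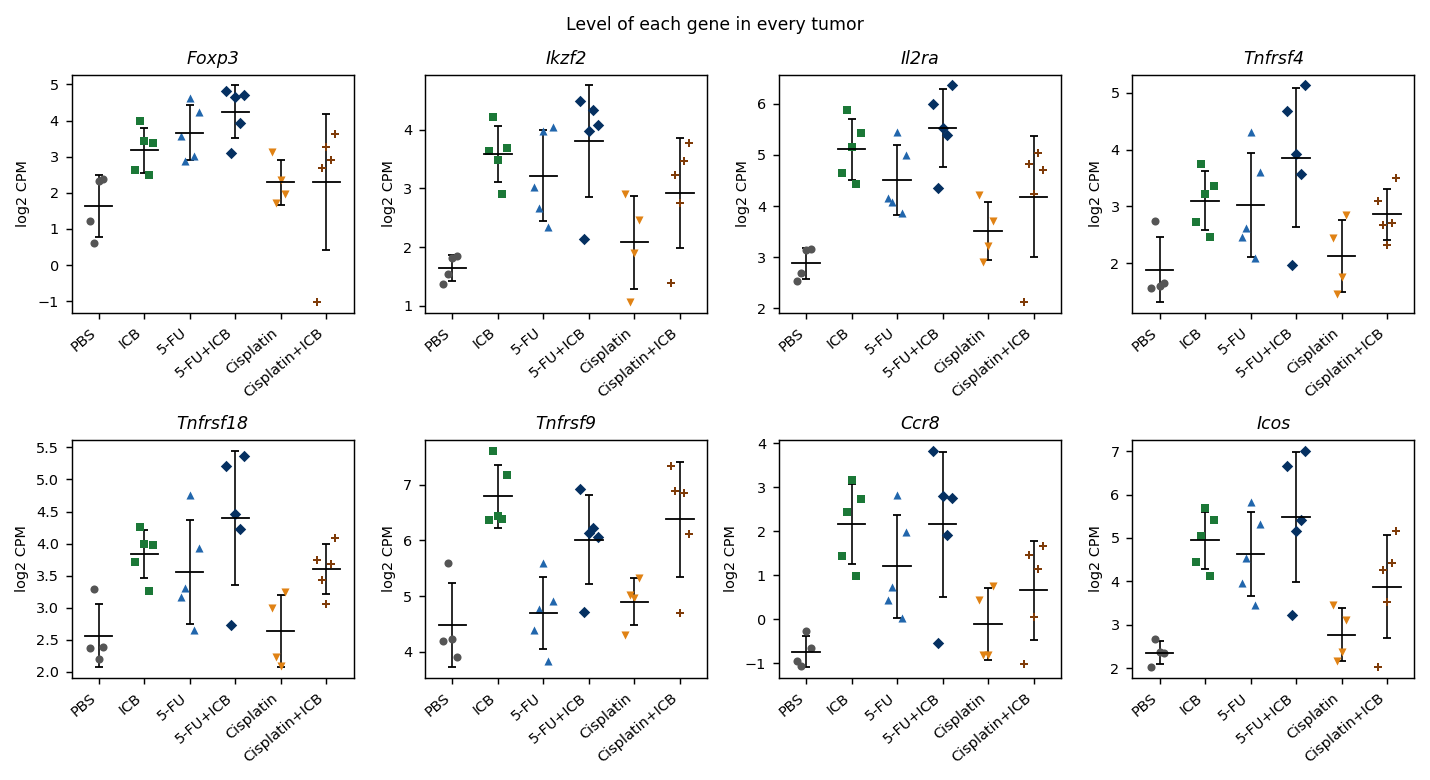
Level of each of the 8 genes in every tumor as log2 CPM (y axis), 1 panel a gene and 1 point a tumor, by treatment group, with the group mean and SD. Foxp3 runs from 1.46 to 5.12 CPM in the 4 PBS tumors and from 8.59 to 28.1 CPM in the 5 tumors given 5-FU+ICB, and 1 cisplatin+ICB tumor lies at 0.424 CPM.

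Ikzf2 codes for Helios, a zinc finger factor of regulatory T cells that is also found in other activated lymphocytes. It was at 2.51, 2.85, 3.43 and 3.52 CPM in PBS tumors, at 12.4, 18.6, 11.2, 7.37 and 12.8 CPM in ICB tumors, at 8.08, 6.29, 15.8, 4.98 and 16.5 CPM in 5-FU tumors, and at 22.3, 4.31, 15.7, 20.0 and 16.9 CPM in 5-FU+ICB tumors. All 15 tumors of the 3 treatments lay above the controls, with 5-FU+ICB tumor 2 the lowest of them. Ikzf2 rose 4.15-fold after ICB (edgeR adjusted p = 0.00212), 3.40-fold after 5-FU (edgeR adjusted p = 0.0112) and 5.28-fold after 5-FU+ICB (edgeR adjusted p = 0.00112). After cisplatin+ICB the tumors held 2.54, 9.34, 6.66, 11.0 and 13.6 CPM, tumor 1 again being the lowest and the only one among the controls. The rise there was 2.83-fold (edgeR adjusted p = 0.0457), a call that was lost in 12 of the 18 fits with 1 tumor left out (edgeR adjusted p up to 0.144), and cisplatin tumors lay at 2.02 to 7.44 CPM.

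Il2ra codes for the chain that gives the interleukin-2 receptor its high affinity, on regulatory and on freshly activated T cells. It was at 5.76, 6.37, 8.71 and 8.84 CPM in PBS tumors, at 25.0, 59.1, 35.4, 21.4 and 43.2 CPM in ICB tumors, at 17.9, 16.8, 43.5, 14.4 and 31.8 CPM in 5-FU tumors, and at 64.0, 20.3, 45.8, 42.0 and 82.1 CPM in 5-FU+ICB tumors. No treated tumor of these groups came as low as any control. Il2ra rose 5.11-fold after ICB (2.35 ± 0.42, edgeR adjusted p = 0.00074), 3.41-fold after 5-FU (1.77 ± 0.41, edgeR adjusted p = 0.00859) and 7.04-fold after 5-FU+ICB (2.82 ± 0.43, edgeR adjusted p = 0.000395). In cisplatin+ICB tumors it was at 4.29, 28.3, 18.7, 32.8 and 26.1 CPM, a 3.00-fold rise (1.59 ± 0.45, edgeR adjusted p = 0.0467) in which tumor 1 lay below every control. That call was lost in 13 of the 18 fits with 1 tumor left out (edgeR adjusted p up to 0.148). Cisplatin alone left it between 7.47 and 18.5 CPM.

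Icos codes for an inducible costimulator of the CD28 family. It was at 3.97, 6.34, 5.13 and 5.02 CPM in PBS tumors, at 21.6, 33.2, 51.6, 17.2 and 42.7 CPM in ICB tumors, at 15.5, 23.2, 57.0, 11.0 and 39.6 CPM in 5-FU tumors, and at 101, 9.21, 35.7, 42.2 and 129 CPM in 5-FU+ICB tumors. All of these lay above the controls, and the 5-FU+ICB group spread widest, from tumor 2 at 9.21 to tumor 5 at 129 CPM. Icos rose 6.57-fold after ICB (edgeR adjusted p = 0.00334), 5.76-fold after 5-FU (edgeR adjusted p = 0.0113) and 12.6-fold after 5-FU+ICB (edgeR adjusted p = 0.000957). In cisplatin+ICB tumors it ran from 4.03 CPM in tumor 1 to 35.5 CPM in tumor 5 and rose 3.60-fold (1.85 ± 0.49, edgeR adjusted p = 0.0352), a call lost without any 1 PBS tumor and without cisplatin+ICB tumor 2, 4 or 5 (edgeR adjusted p up to 0.122). Without 5-FU+ICB tumor 5 the log2 fold change of Icos after 5-FU+ICB was 3.22 (edgeR adjusted p = 0.00194).

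Ccr8, the receptor for the chemokines CCL1 and CCL8 in the mouse, was the least counted of the 8. It was at 0.446, 0.407, 0.759 and 0.565 CPM in PBS tumors, at 2.66, 5.37, 8.96, 1.92 and 6.54 CPM in ICB tumors, at 1.29, 1.58, 6.99, 0.947 and 3.91 CPM in 5-FU tumors, and at 14.2, 0.620, 6.93, 3.68 and 6.70 CPM in 5-FU+ICB tumors. Every tumor after ICB or after 5-FU lay above the controls, whereas 5-FU+ICB tumor 2 lay among them. Ccr8 rose 9.50-fold after ICB (3.25 ± 0.78, edgeR adjusted p = 0.00375), 5.48-fold after 5-FU (2.45 ± 0.76, edgeR adjusted p = 0.0262) and 12.0-fold after 5-FU+ICB (3.59 ± 0.79, edgeR adjusted p = 0.00244). The call for 5-FU was lost without PBS tumor 1 (edgeR adjusted p = 0.0756), PBS tumor 2 (0.0856), 5-FU tumor 3 (0.0757) or 5-FU tumor 5 (0.0551), with log2 fold changes down to 1.85. After cisplatin+ICB the log2 fold change was 1.79 ± 0.59 (edgeR adjusted p = 0.0737), and without tumor 1 it was 2.12 (edgeR adjusted p = 0.00751).

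Tnfrsf4 (OX40) and Tnfrsf18 (GITR) code for costimulatory receptors that regulatory T cells carry at rest and other T cells gain on activation. In PBS tumors Tnfrsf4 was at 2.88, 6.61, 2.96 and 3.06 CPM and Tnfrsf18 at 5.07, 9.66, 4.52 and 5.15 CPM, so that tumor 2 was the highest control for both. In ICB tumors Tnfrsf18 was at 13.0, 19.0, 15.9, 9.53 and 15.6 CPM, of which tumor 4 overlapped with that control, and it rose by 1.27 ± 0.48 on the log2 scale (edgeR adjusted p = 0.0422). This call was lost without PBS tumor 1, 3 or 4 or ICB tumor 1, 2, 3 or 5 (edgeR adjusted p of 0.0520 to 0.103). In the same tumors Tnfrsf4 was at 6.54, 13.4, 9.28, 5.42 and 10.2 CPM and missed the threshold (1.22 ± 0.56, edgeR adjusted p = 0.0879), passing it without PBS tumor 2 (1.65, edgeR adjusted p = 0.0499) and without 5-FU+ICB tumor 2 (edgeR adjusted p = 0.0455).

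After 5-FU alone the log2 fold changes of Tnfrsf4 and Tnfrsf18 were 1.29 ± 0.56 (edgeR adjusted p = 0.0943) and 1.13 ± 0.48 (edgeR adjusted p = 0.0876), and both passed the threshold without 5-FU+ICB tumor 2 (edgeR adjusted p = 0.0489 and 0.0413). After 5-FU+ICB, Tnfrsf4 was at 25.6, 3.84, 15.2, 11.9 and 35.1 CPM and rose 4.74-fold (edgeR adjusted p = 0.00584), and Tnfrsf18 was at 36.8, 6.54, 22.0, 18.7 and 41.2 CPM and rose 4.13-fold (edgeR adjusted p = 0.00395). Tumor 2 of this group lay among the controls for both genes. After cisplatin+ICB, Tnfrsf4 was at 8.48, 6.35, 4.95, 6.43 and 11.2 CPM and Tnfrsf18 at 13.4, 10.7, 8.28, 12.8 and 17.0 CPM, and tumor 1, low for the genes above, was here the second highest of its group in CPM. That rank rests on the normalization, since the TMM factor of tumor 1 was 0.685, against 1.08 to 1.14 in the rest of its group. By estimated count, tumor 1 was the lowest of its group for both genes (160 and 252). Neither gene passed the threshold (0.96, edgeR adjusted p = 0.121, and 1.04 ± 0.31, edgeR adjusted p = 0.0525). Tnfrsf18 did in 4 of the fits with 1 tumor left out, among them that without cisplatin+ICB tumor 1 (edgeR adjusted p = 0.0229).

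Tnfrsf9 codes for 4-1BB (CD137), a costimulatory receptor induced on activated CD8 T cells, NK cells and regulatory T cells and also made by some myeloid cells. It was at 18.2, 48.3, 18.7 and 14.9 CPM in PBS tumors, at 82.0, 195, 86.4, 83.6 and 144 CPM in ICB tumors, and at 20.9, 27.2, 48.1, 14.2 and 30.0 CPM in 5-FU tumors. Every ICB tumor exceeded every control and every 5-FU tumor, while 5-FU tumors ran through the range of the controls. The rise was 4.73-fold after ICB (2.24 ± 0.48, edgeR adjusted p = 0.00199), and the log2 fold change after 5-FU was 0.15 ± 0.45 (edgeR adjusted p = 0.823), running from -0.14 without 5-FU tumor 3 to 0.74 without PBS tumor 2. With 5-FU+ICB the tumors held 121, 26.2, 70.4, 74.6 and 66.9 CPM, a 2.87-fold rise (1.52 ± 0.47, edgeR adjusted p = 0.0146). With cisplatin+ICB they held 162, 118, 26.0, 116 and 69.1 CPM, a 3.96-fold rise (1.98 ± 0.48, edgeR adjusted p = 0.0254) whose call was lost without PBS tumor 1, 3 or 4 or cisplatin+ICB tumor 2 or 4 (edgeR adjusted p up to 0.102). Tumor 1 of that last group, which had the least Foxp3 of the series, had the highest Tnfrsf9 value of its group in CPM. Its TMM factor was the lowest of the series (0.685), and by estimated count tumor 4 of the group was the highest (3753). The difference between the ICB and the 5-FU effect was not tested as such.

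After cisplatin alone, none of the 8 genes was called (edgeR adjusted p = 0.999968 for each), none had an unadjusted p under 0.05, and DESeq2 called 0 of the 8 and 4 of all genes. Of all 17819 genes tested, 0% were called and 1.78% had an unadjusted p under 0.05. The log2 fold changes ran from 0.10 (Tnfrsf18) to 0.85 (Ccr8) with a median of 0.55, against -0.01 over all genes. Foxp3 was at 0.59 and Il2ra at 0.71. After cisplatin+ICB, 4 genes rose (Ikzf2, Il2ra, Tnfrsf9 and Icos), against 4.70% of all genes called higher and 6.10% in either direction, and each of the 4 overlapped with PBS (3.56% of all genes were higher without overlap). The number called here rested on single tumors. It was 7 without cisplatin+ICB tumor 1, where 35.3% of all genes were called (18.2% higher). It was 0 without PBS tumor 1, 3 or 4 (0% of all genes each) and without cisplatin+ICB tumor 2 or 4 (249 and 266 genes). It was also 0 with the model of these groups alone (0%), 0 with the replicate number as a block, and 6 with DESeq2 (10.1%).

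The direct comparisons of the agents in the 6 groups joined gave no call for any of the 8 genes. Between 5-FU and cisplatin, 7 of the 8 were higher after 5-FU and had an unadjusted p under 0.05, which 15.5% of all 18521 genes had, while 0.362% of all genes were called. Icos differed most, with no overlap between 5-FU (11.0 to 57.0 CPM) and cisplatin tumors (4.38 to 10.9 CPM), as for 5.29% of all genes, and a log2 fold change of 2.02 ± 0.62 (edgeR adjusted p = 0.123). Foxp3 differed by 1.43 (edgeR adjusted p = 0.234) and Tnfrsf9 by -0.13 (edgeR adjusted p = 0.892). DESeq2 called 1 of the 8 and 3.67% of all genes. Without cisplatin+ICB tumor 1, which adds to the shared estimate of spread, edgeR called Foxp3 (adjusted p = 0.0492) and Icos (adjusted p = 0.0345) and 6.64% of all genes. Between 5-FU+ICB and cisplatin+ICB the same 7 genes were higher after 5-FU+ICB, 6 of them with an unadjusted p under 0.05 (25.7% of all genes, of which 0.297% were called). Foxp3 differed by 1.51 (edgeR adjusted p = 0.10) and Icos by 1.80 ± 0.56 (edgeR adjusted p = 0.0809). Without 5-FU+ICB tumor 2 edgeR called 6 of the 8, Foxp3 among them (1.71, adjusted p = 0.0449), and 11.6% of all genes (6.29% higher). Without cisplatin+ICB tumor 5 it called 1 (6.10% of all genes), and DESeq2 called 2 with all tumors (8.32%).

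Set against their single agents, the combinations gave no edgeR call either. From ICB to 5-FU+ICB, Foxp3 had the largest difference (1.09 ± 0.43) and the only unadjusted p under 0.05 (edgeR adjusted p = 0.350), and Tnfrsf9 went the other way (-0.72 ± 0.42, edgeR adjusted p = 0.567). Of all genes 10.9% had such a p and 0.229% were called, and DESeq2 called 0 of the 8 and 1.68% of all genes. From 5-FU to 5-FU+ICB the differences ran from 0.57 for Foxp3 to 1.37 ± 0.43 for Tnfrsf9 (edgeR adjusted p = 0.160), 2 of the 8 had an unadjusted p under 0.05 (16.6% of all genes, with 0.0112% called), and DESeq2 called 1 (2.97% of all genes). Without 5-FU+ICB tumor 2, edgeR called Il2ra (1.25, adjusted p = 0.0309) and Tnfrsf9 (1.59, adjusted p = 0.0269) and 10.9% of all genes, and without 5-FU tumor 3 it called 1 (3.58%). From ICB to cisplatin+ICB all 8 differences were below 0, from -0.23 (Tnfrsf18) to -1.44 (Ccr8, edgeR adjusted p = 0.291), and from cisplatin to cisplatin+ICB all 8 were above 0, up to 1.68 for Tnfrsf9 (edgeR adjusted p = 0.117), with 0% of all genes called in both. In the first 1 of the 8 had an unadjusted p under 0.05 (15.9% of all genes) and DESeq2 called 0 of the 8 and 0.260% of all genes. From cisplatin to cisplatin+ICB 4 of the 8 had an unadjusted p under 0.05 (14.2% of all genes), DESeq2 called 2 (4.20% of all genes), and edgeR called 3 without cisplatin+ICB tumor 1 (11.9%) and 1 without its tumor 3 (3.04%). The interaction terms, which ask whether chemotherapy and ICB together differed from the sum of their log2 effects, were below 0 for all 8 genes with 5-FU (-0.26 to -2.12, smallest edgeR adjusted p = 0.147) and with cisplatin (-0.33 to -2.29, smallest edgeR adjusted p = 0.564), and 0 were called by edgeR or by DESeq2, with 3 and 2 at an unadjusted p under 0.05 (23.9% and 7.14% of all genes, of which 0.0893% and 0% were called by edgeR). DESeq2 called 9.57% of all genes for the interaction with 5-FU and 1 gene for that with cisplatin, and without PBS tumor 3 edgeR called 9.27% for the interaction with 5-FU, with 0 of the 8 in each.

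By mean log2 CPM, PBS was the lowest group for all 8 genes. The 5-FU+ICB group was the highest for Foxp3, Ikzf2, Il2ra, Icos, Tnfrsf4 and Tnfrsf18, and ICB was the highest for Tnfrsf9 and, by less than 0.01, for Ccr8. For Foxp3 the order was 5-FU+ICB (mean 4.25), 5-FU (3.66), ICB (3.18), cisplatin+ICB (2.29), cisplatin (2.29) and PBS (1.64), and for Tnfrsf9 it was ICB (6.79), cisplatin+ICB (6.38), 5-FU+ICB (6.01), cisplatin (4.90), 5-FU (4.70) and PBS (4.48). In both orders, as in those of the other genes, the tumors of each group overlapped with those of the next.

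The T cell reference genes themselves rose. Cd3e rose 11.4-fold after ICB, 4.73-fold after 5-FU and 17.6-fold after 5-FU+ICB, and Cd8a rose 21.5-fold, 5.38-fold and 29.7-fold (edgeR adjusted p of 0.0288 or less for each). Relative to Cd3e in the same tumor, the log2 ratio of Foxp3 was -0.43, -1.63, 0.49 and 0.39 in PBS tumors, -2.34, -1.23, -2.85, -1.74 and -2.26 in ICB tumors, 0.35, -0.85, -0.78, 0.75 and -0.09 in 5-FU tumors, and -2.00, 0.34, -0.85, -1.93 and -2.00 in 5-FU+ICB tumors. PBS and 5-FU tumors overlapped, ICB tumors lay lower with 1 in the range of PBS, and 5-FU+ICB spanned both. The ratio was lower after ICB than in PBS by 1.79 (difference -1.79 ± 0.65, limma adjusted p = 0.0123, exact two-sided permutation p = 0.0238), and the call was lost without PBS tumor 3 (-1.53, limma adjusted p = 0.0510). It differed from PBS by 0.17 ± 0.65 after 5-FU (limma adjusted p = 0.815) and by -0.99 ± 0.65 after 5-FU+ICB (limma adjusted p = 0.144), and without 5-FU+ICB tumor 2 the latter was -1.40 (limma adjusted p = 0.0204), in a fit where 96.0% of all genes were called lower.

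Relative to Cd8a, the log2 ratio of Foxp3 was -0.79, -1.82, -0.20 and -0.20 in PBS tumors, -3.79, -2.48, -4.11, -3.52 and -3.63 in ICB tumors, and -2.99, -0.41, -1.84, -3.04 and -3.54 in 5-FU+ICB tumors. All ICB tumors lay below all PBS tumors, and 5-FU+ICB overlapped with both. The difference from PBS was -2.75 ± 0.77 after ICB (limma adjusted p = 0.00121, exact two-sided permutation p = 0.00794, the smallest that 5 against 4 tumors allow), 0.19 ± 0.77 after 5-FU (limma adjusted p = 0.827) and -1.61 ± 0.77 after 5-FU+ICB (limma adjusted p = 0.0449, exact permutation p = 0.0714). The last of these calls was lost without PBS tumor 1, 3 or 4 or 5-FU+ICB tumor 1, 4 or 5 (limma adjusted p up to 0.114). From 5-FU to 5-FU+ICB it fell by 1.80 (limma adjusted p = 0.0221, exact permutation p = 0.0397), where 6 of the 8 genes and 90.9% of all genes were called lower, and this call was lost without 5-FU tumor 1 or 4 or 5-FU+ICB tumor 1, 4 or 5 (limma adjusted p up to 0.0659). Most genes were called lower relative to these references as well, and the cause of the falls was not tested. Relative to Cd8a, 98.0% of all genes tested were called lower after ICB and 96.5% after 5-FU+ICB, and relative to Cd3e 93.6% after each, so that 8 and 6 of the 8 genes (Cd8a) and 4 and 4 (Cd3e) called lower were near or below the background share. By the exact permutation test, 8 and 7 of the 8 (Cd8a) and 6 and 4 (Cd3e) had an unadjusted p under 0.05, a count not taken over all genes. From 5-FU to 5-FU+ICB relative to Cd3e, 5 of the 8 had such a p, with 0 called by limma. After 5-FU the single gene called lower relative to Cd3e was Tnfrsf9 (-1.63, limma adjusted p = 0.0444, lost without any 1 PBS tumor and without 5-FU tumor 1, 2, 3 or 5), where 44.2% of all genes were, and relative to Cd8a 0 of the 8 and 0.0335% of all genes were.

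**Figure D3:**
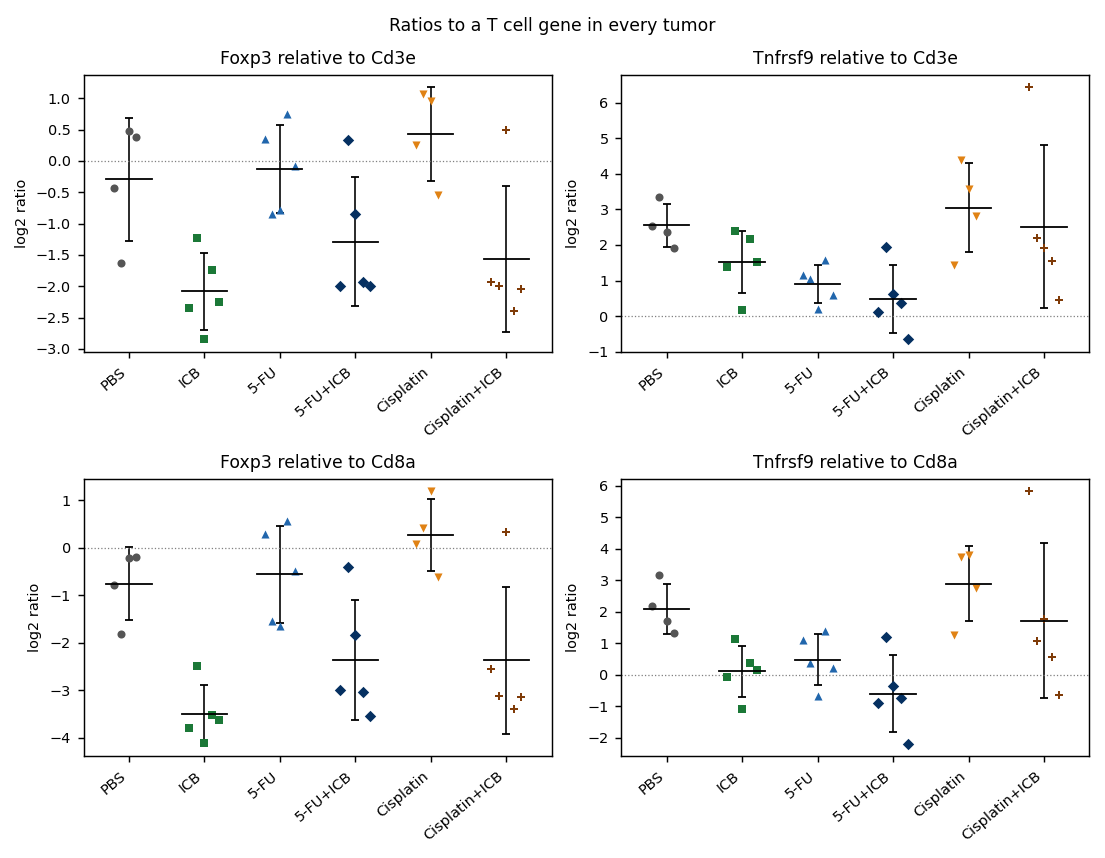
Log2 ratio of Foxp3 (left) and of Tnfrsf9 (right) to Cd3e or to Cd8a in the same tumor (y axis), 1 point a tumor, by treatment group, with the group mean and SD. The ratio of Foxp3 to Cd8a lies between -1.82 and -0.20 in PBS tumors and between -4.11 and -2.48 in ICB tumors, and 1 cisplatin+ICB tumor lies at 0.34 while the other 4 lie below -2.

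In cisplatin tumors the log2 ratio of Foxp3 to Cd3e was 0.25, 1.07, 0.95 and -0.55, and in cisplatin+ICB tumors it was -1.92, -1.99, 0.49, -2.39 and -2.04. Tumor 3 of the second group, which had 6.81 CPM of Cd3e and 9.58 CPM of Foxp3, stood among the cisplatin tumors and the other 4 below them. From cisplatin to cisplatin+ICB the ratio to Cd3e differed by -2.00 ± 0.76 (limma adjusted p = 0.0505, exact two-sided permutation p = 0.0317), where 0.0112% of all genes were called lower. Without tumor 3 of cisplatin+ICB the difference was -2.52 (limma adjusted p = 0.0232), without tumor 1 of that group -1.92 (limma adjusted p = 0.00734), and it was also called without cisplatin tumor 1 or 4. In these 4 fits 63.9%, 92.9%, 70.2% and 32.9% of all genes were called lower. The ratio to Cd8a fell by 2.64 (limma adjusted p = 0.0134, exact permutation p = 0.0317), and 5 of the 8 genes and 88.3% of all genes were called lower. Without cisplatin tumor 2 or 3 the call for Foxp3 was lost (limma adjusted p = 0.0535 and 0.0581). Cisplatin+ICB tumor 1 had the highest log2 ratio of Tnfrsf9 to Cd3e of all tumors (6.44), with Tnfrsf9 at 162 and Cd3e at 1.80 CPM. Relative to PBS the Foxp3 ratio differed by 0.73 (Cd3e) and 1.02 (Cd8a) after cisplatin and by -1.28 and -1.62 after cisplatin+ICB, none of them called by limma (67.8% of all genes were called lower relative to Cd8a after cisplatin+ICB), although the last pair was called without cisplatin+ICB tumor 3 (-1.79, limma adjusted p = 0.0407, and -2.30, limma adjusted p = 0.0107), where 59.2% and 83.5% of all genes were called lower. After cisplatin alone the differences from PBS were above 0 for all 8 genes with both references, and limma called 0. Every cisplatin tumor exceeded every PBS tumor for Il2ra, Ikzf2, Ccr8 and Icos relative to Cd8a and for Icos relative to Cd3e. The exact permutation p was 0.0286 for each, the smallest that 4 against 4 tumors allow, and such genes were not counted over all genes.

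Against Ptprc (CD45), which every leukocyte makes, the ratio of Foxp3 differed from PBS by -0.42 after ICB (limma adjusted p = 0.353), 1.08 after 5-FU (limma adjusted p = 0.0672) and 0.72 after 5-FU+ICB (limma adjusted p = 0.121). Ptprc itself rose 4.01-fold after ICB (edgeR adjusted p = 0.00231) and 4.44-fold after 5-FU+ICB (edgeR adjusted p = 0.00174), and after 5-FU stood at 2.13-fold (edgeR adjusted p = 0.0654). Relative to Ptprc, Icos rose after 5-FU (1.32, limma adjusted p = 0.0272) and after 5-FU+ICB (1.24, limma adjusted p = 0.00305), Il2ra rose after 5-FU+ICB (0.75, limma adjusted p = 0.0365), and Tnfrsf4 and Tnfrsf18 fell after ICB (-0.74, limma adjusted p = 0.0350, and -0.68, limma adjusted p = 0.0369). Of all genes 0.988% were called higher relative to Ptprc after 5-FU and 1.87% after 5-FU+ICB, whereas 77.4% were called lower after ICB, as were Tnfrsf4 and Tnfrsf18. The cause of these falls was not tested. Against Cd4 the ratio of Foxp3 differed by -0.69 after ICB (limma adjusted p = 0.341) and by -0.47 after 5-FU+ICB (limma adjusted p = 0.50).

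Across the 28 tumors the levels of Tnfrsf4 and Tnfrsf18 ran closest together (Pearson r = 0.983 of log2 CPM), and those of Foxp3 and Tnfrsf9 ran most apart (r = 0.0938). The 7 pairs that include Tnfrsf9 had correlations of 0.0938 to 0.675 and the other 21 pairs 0.585 to 0.983. These values describe tumors that share treatments and composition, and 1 tumor carried part of the contrast, since without cisplatin+ICB tumor 1 the correlation of Foxp3 was 0.360 with Tnfrsf9, 0.786 with Tnfrsf4 (0.600 with it) and 0.774 with Tnfrsf18 (0.585 with it). With Cd3e the correlation was 0.958 for Icos, 0.761 for Foxp3 and 0.607 for Tnfrsf9.

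**Figure D4:**
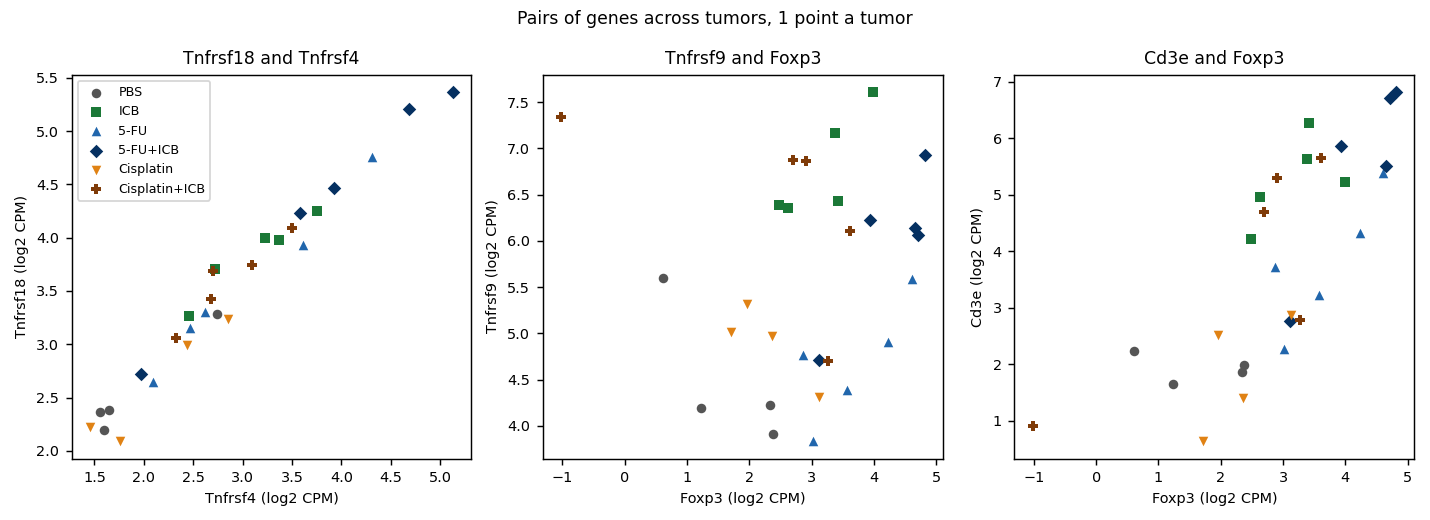
Levels of 3 pairs of genes across the 28 tumors as log2 CPM on both axes, 1 point a tumor, with a marker for each treatment group. Tnfrsf18 rises with Tnfrsf4 along a narrow line (r = 0.983), Tnfrsf9 and Foxp3 scatter (r = 0.0938), and Cd3e and Foxp3 lie between (r = 0.761).

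Among 14399 genes with a mean of at least 1 CPM, the transcripts most like Foxp3 over the 28 tumors were Il6st (r = 0.972), Ptprb (0.965) and Sema3g (0.964), with Cd3e at rank 1533 and Ctla4 at rank 4502. Those most like Icos were Cd28 (0.980), Rnf125 (0.979) and Cd27 (0.974), and those most like Tnfrsf9 were Clec7a (0.956), Clec4e (0.951) and Glrx (0.943). Cd28 and Cd27 code for costimulatory receptors of T cells, Ptprb for a phosphatase of endothelial cells, and Clec7a and Clec4e for lectin receptors of myeloid cells. For Tnfrsf18 they were Tnfrsf4, Cd2 (0.971) and Gpr171 (0.969), for Il2ra Tnfrsf21 (0.973), Ptgir (0.971) and Agap2 (0.971), for Ikzf2 Mctp2 (0.967), Rassf2 (0.967) and Irak3 (0.958), and for Ccr8 Kctd12 (0.965), Eepd1 (0.960) and Colec12 (0.960). Without cisplatin+ICB tumor 1 the transcripts most like Foxp3 were Myh11 (0.958), Il6st (0.957) and Ptprb (0.950), with Cd3e at rank 1099 and Ctla4 at rank 1538, and those most like Tnfrsf9 were Clec4e (0.959), Irak2 (0.956) and Clec7a (0.952). Foxp3 also ran with the summed level of 4 endothelial markers, Pecam1, Cdh5, Kdr and Vwf (r = 0.913), and against that of the mesothelioma markers (r = -0.912), beside r = 0.845 with the CD4 T cell markers and r = 0.664 with the T cell markers. Without cisplatin+ICB tumor 1 these correlations were 0.879, -0.864, 0.854 and 0.751. With the markers of dendritic cells, mast cells and macrophages r was 0.854, 0.701 and 0.699, and without that tumor 0.803, 0.749 and 0.660. Endothelial markers summed to 61.8 to 121 CPM in PBS, 127 to 265 in ICB, 131 to 312 in 5-FU and 150 to 637 CPM in 5-FU+ICB tumors. In these treatments 2, 2 and 4 of the 4 were called higher than PBS (19.0%, 9.98% and 21.9% of all genes), while their median log2 fold change after cisplatin+ICB was 0.23 with 0 called. The T cell markers called higher were 9, 5 and 9 of 9 in the same groups and 9 in cisplatin+ICB (4.70% of all genes), with sums of 44.4 to 447 CPM in 5-FU and 62.7 to 1549.6 CPM in 5-FU+ICB tumors. Mast cell markers called higher after ICB, 5-FU and 5-FU+ICB were 3, 4 and 5 of 5, macrophage markers 4, 2 and 2 of 4, and dendritic cell markers 2, 0 and 5 of 6, and 0, 1 and 1 of them after cisplatin+ICB. Neutrophil markers called higher were 2, 1 and 1 of 4 and effector lymphocyte markers 5, 3 and 5 of 5, and 4 and 4 of them after cisplatin+ICB. Mesothelioma markers summed to 337 to 481 CPM in PBS, 148 to 302 in ICB, 176 to 283 in 5-FU and 137 to 308 CPM in 5-FU+ICB tumors. Msln and Pdpn (podoplanin, mean 103 CPM) make up most of that sum. Of the 5 mesothelioma markers tested, Wt1, a transcription factor at a mean of 0.779 CPM, rose after all 3 treatments (3.03, 2.67 and 3.75, edgeR adjusted p of 0.0109 or less), and after 5-FU+ICB Pdpn rose (0.61, edgeR adjusted p = 0.0429) and Msln fell (-2.28, edgeR adjusted p = 0.0238). Msln was at -1.51 after ICB and -1.54 after 5-FU (edgeR adjusted p = 0.117 and 0.136), and the medians of the 5 were -0.47, -0.06 and 0.61. Tnfrsf9 ran with markers of neutrophils (r = 0.873) and of effector lymphocytes (r = 0.853) and hardly with endothelium (r = 0.218), and without cisplatin+ICB tumor 1 these were 0.882, 0.896 and 0.461. The part of tumor composition in the changes of the 8 genes was not tested.

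Of 18 further genes of the regulatory T cell signature, 8 rose and 1 fell after ICB, 6 rose and 1 fell after 5-FU, 12 rose and 1 fell after 5-FU+ICB and 4 of 17 tested rose after cisplatin+ICB, where 19.0%, 9.98%, 21.9% and 4.70% of all genes were called higher. Their median log2 fold changes were 1.44, 1.31, 1.98 and 1.20 in that order, against -0.03, -0.01, -0.04 and 0.03 over all genes, and 0.25 after cisplatin alone (-0.01 over all genes). Fgl2, a secreted suppressor that macrophages also make, rose after ICB (3.25, edgeR adjusted p = 0.000445), 5-FU (2.08, edgeR adjusted p = 0.00955) and 5-FU+ICB (2.87, edgeR adjusted p = 0.000927). Tnfrsf1b, a TNF receptor, rose after ICB (2.13, edgeR adjusted p = 0.000823) and 5-FU+ICB (1.88, edgeR adjusted p = 0.00168), Il1rl1, the interleukin-33 receptor, after ICB (1.43, edgeR adjusted p = 0.0485) and cisplatin+ICB (1.42, edgeR adjusted p = 0.0182), and Capg, an actin capping protein, fell by 0.91 after 5-FU (edgeR adjusted p = 0.00565). Ctla4, which codes for the target of the anti-CTLA-4 antibody, rose after 5-FU (1.68, edgeR adjusted p = 0.0393) and 5-FU+ICB (2.03, edgeR adjusted p = 0.00993) and stood at 1.26 after ICB (edgeR adjusted p = 0.0818).

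Of 18 genes that regulate Foxp3 or effector regulatory T cells, 14 rose after ICB, 9 after 5-FU, 14 after 5-FU+ICB and 1 after cisplatin+ICB, with medians of 1.06, 1.07, 1.23 and 0.54, and 0 fell. The shares of all genes called higher were 19.0%, 9.98%, 21.9% and 4.70%, and the 1 of 18 after cisplatin+ICB is near that background. Stat5b, which carries the interleukin-2 signal, rose after ICB (0.53, edgeR adjusted p = 0.00527) and 5-FU+ICB (0.62, edgeR adjusted p = 0.00221), and Foxo3, a forkhead factor, after ICB (0.78, edgeR adjusted p = 0.0138), 5-FU (0.72, edgeR adjusted p = 0.0330) and 5-FU+ICB (0.82, edgeR adjusted p = 0.0104). Of 10 tested genes from a list of ligands and receptor partners, which also holds Cd86 and Cd80 although their products bind CD28 and CTLA-4 and none of the 8, 7 rose after ICB, 3 after 5-FU, 7 after 5-FU+ICB and 4 after cisplatin+ICB, and 1 fell after 5-FU+ICB (Tnfsf9, the ligand of 4-1BB, -0.62, edgeR adjusted p = 0.0387), against the same shares of all genes. Il2rb, the signalling chain beside IL2RA, rose after each of these (2.95, 2.10, 3.38 and 2.12, edgeR adjusted p = 0.000667, 0.00938, 0.000471 and 0.0441). Ccl8, a ligand of CCR8, rose after ICB (2.73, edgeR adjusted p = 0.00607), 5-FU (2.09, edgeR adjusted p = 0.0344) and 5-FU+ICB (2.70, edgeR adjusted p = 0.00623), and Cd86, a ligand of CD28 and CTLA-4, rose after all 4 (2.62, 1.55, 2.70 and 1.80, edgeR adjusted p = 0.00126, 0.0304, 0.00124 and 0.0234).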

How the data were processed

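RNA from 28 whole tumors had been sequenced as single-end reads, and per the labels the authors quantified transcripts with kallisto 0.46.0 after bcl2fastq 2.20.0.422 and summed them to genes of GRCm38 with tximport. The deposited values are estimated counts in a matrix of the 5-FU groups and a matrix of the cisplatin groups, which share 9 PBS and ICB tumors with identical values. Of these values 23.7% were not whole, and all were rounded to whole counts. Whether strand was used is not given in the sources used here. Flow cytometry and survival were not analysed here.

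Groups were taken from the labels. The 8 genes, the gene lists and the tests were chosen with earlier results of these data known, so no list is independent support. Changes were tested with edgeR 4.0.16 (TMM, filterByExpr, quasi-likelihood F test, R 4.3.3) over the 4 groups of a matrix (17916 or 17819 genes tested) or, between chemotherapies, over all 6 groups (18521 genes), with Benjamini-Hochberg adjustment over all genes tested, and a gene was called at an adjusted p under 0.05 and a log2 fold change over 0.5 in size. CPM are TMM-normalised, and log2 CPM have a prior count of 2. Ratios to Cd3e or Cd8a are differences of log2 CPM within a tumor, taken for every gene and tested with limma 3.58.1 (trend), beside an exact two-sided permutation test over tumors, whose smallest possible p is 0.00794 for 5 against 5 or 4 tumors and 0.0286 for 4 against 4. The study describes the sequencing as a single experiment, and no batches are named. At 23541733 to 33950805 counts per tumor, counting error (Poisson, from the mean count of a group) was 25.6% of the level for Ccr8 in PBS, beside an observed coefficient of variation of 29.1%, and 10.7% beside 15.6% for Ikzf2 in PBS. In the other 46 combinations of gene and group it was at most 0.440 times the observed spread.

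All 8 genes are described, and of each list at most 4 genes, those with the highest mean CPM, with Ctla4 and Tnfsf9 named after their values were seen. Alternatives were DESeq2 1.42.0, DESeq2 size factors in edgeR, no filter, a replicate block, all groups joined, the compared groups alone, a prior count of 0.5, Ptprc or Cd4 as the reference, and each tumor left out. Correlations without cisplatin+ICB tumor 1 and the wide NF-kB consensus were added after the data had been seen. The fits were tested before use on simulated data of ICB against PBS, with 200 genes changed by 2 on the log2 scale. There DESeq2 recovered 82% of the changed genes (17916 genes tested) and edgeR 73% (17577 genes tested). Of their calls 22.3% and 3.95% were false. Loci are from GENCODE M21 and promoter windows from RefSeq (GRCm38.p6), read with Python 3.11.15, and figures were drawn with matplotlib 3.10.9.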

Additional observations from a re-analysis of the deposited data

Results flagged for a closer look

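Of 144 groups of 4 or 5 tumors examined (each of the 8 genes as log2 CPM and as log2 ratio to Cd3e and Cd8a), 7 held a tumor far from the others by Dixon's criterion. The 144 groups share tumors and values, so how many would be flagged by chance was not worked out. In cisplatin+ICB tumor 1, Foxp3 was at -1.02 log2 CPM with the next tumor at 2.70, and Il2ra at 2.13 log2 CPM with the next at 4.23, and both were the lowest of the group. In cisplatin+ICB tumor 3 the log2 ratio of Foxp3 was the highest of the group, at 0.49 to Cd3e (next -1.92) and at 0.34 to Cd8a (next -2.55). Ikzf2 was lowest in 5-FU+ICB tumor 2, at 2.13 log2 CPM with the next at 3.98, and the log2 ratio of Ikzf2 to Cd8a was highest in cisplatin tumor 3, at 0.73 with the next at -0.12. Tnfrsf4 was highest among the controls in PBS tumor 2, at 2.74 log2 CPM with the next at 1.64.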

How the results depend on the processing

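The number of the 8 genes called kept within 1.5 times of its value under every alternative for ICB, 5-FU and 5-FU+ICB against PBS, with ranges over left-out tumors of 5 to 8, 4 to 7 and 8 to 8. For cisplatin+ICB against PBS, where 4 were called, the number was 2 with no filter (1.76% of all genes called), 0 with the replicate block (0.533%), 1 in the model of all groups joined (4.36%) and 0 in the model of the compared groups alone (0%), and 0 to 7 over left-out tumors. DESeq2 gave 1 call for 5-FU+ICB against 5-FU, 2 for cisplatin+ICB against cisplatin, 1 for 5-FU against cisplatin and 2 for 5-FU+ICB against cisplatin+ICB, where edgeR gave 0, and left-out tumors gave 0 to 2, 0 to 3, 0 to 2 and 0 to 6. The compared groups alone gave 1 call for 5-FU against cisplatin. Log2 fold changes that changed sign with 1 tumor left out were those of Tnfrsf9 after 5-FU (-0.14 to 0.74) and between 5-FU and cisplatin (-0.42 to 0.053), Ccr8 from ICB to 5-FU+ICB (-0.16 to 0.63), Tnfrsf4 (-0.068 to 0.64) and Tnfrsf18 (-0.16 to 0.41) after cisplatin, and the interaction with 5-FU of Tnfrsf4 (-0.70 to 0.19) and Tnfrsf18 (-0.71 to 0.075).

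The ratios turned on the reference. With Ptprc in place of Cd3e or Cd8a, Foxp3 stood at -0.42 after ICB against PBS, 0.72 after 5-FU+ICB against PBS, -0.19 from ICB to cisplatin+ICB, -0.36 from 5-FU to 5-FU+ICB and -1.02 from cisplatin to cisplatin+ICB, and no call remained. With Ptprc the ratios after ICB were 0.27 for Il2ra, 0.35 for Tnfrsf9, 0.93 for Ccr8 and 0.62 for Icos, those after 5-FU+ICB were 0.75 for Il2ra, 0.27 for Ikzf2 and 0.079 for Tnfrsf4, and that of Ccr8 from 5-FU to 5-FU+ICB was 0.0084, all turned in sign. With Cd4, Foxp3 stood at -0.69 after ICB, -0.47 after 5-FU+ICB, -0.57 from 5-FU to 5-FU+ICB and -1.08 from cisplatin to cisplatin+ICB, none called, and after ICB Il2ra (0.0024), Tnfrsf9 (0.083), Ccr8 (0.67) and Icos (0.36) turned in sign. The fall of Foxp3 relative to Cd8a after 5-FU+ICB (-1.61) lost its call in the exact test (-1.61), with no filter (-1.61), with the replicate block (-1.51) and in the compared groups alone (-1.61), where those from 5-FU (-1.80) and from cisplatin (-2.64) were lost too. The ratio to Cd3e from cisplatin to cisplatin+ICB (-2.00) passed the exact test. With 1 tumor left out the Foxp3 ratio to Cd3e ran from -2.23 to -1.53 (ICB against PBS), -0.27 to 0.43 (5-FU against PBS), -1.44 to -0.73 (5-FU+ICB against PBS), -1.57 to -0.95 (5-FU+ICB against 5-FU), -1.79 to -1.02 (cisplatin+ICB against PBS), -0.0043 to 0.72 (cisplatin+ICB against ICB) and -2.52 to -1.79 (cisplatin+ICB against cisplatin). That to Cd8a ran from -0.16 to 0.47 (5-FU against PBS), -2.10 to -1.32 (5-FU+ICB against PBS), -2.29 to -1.51 (5-FU+ICB against 5-FU), -2.30 to -1.36 (cisplatin+ICB against PBS) and -3.32 to -2.34 (cisplatin+ICB against cisplatin). The cause was not tested.

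Replicate numbers did not pair the tumors. The deviations of tumors with the same number correlated with medians of -0.0168 (8 of 27 pairs over 0.1) and -0.0796 (7 of 25 pairs), and 2 of 19 and 5 of 18 tumors matched their own number best. With the replicate block 6, 4 and 8 of the 8 genes were called after ICB, 5-FU and 5-FU+ICB against PBS, with 33.7%, 18.6% and 35.8% of all genes. Over all genes tested, 4115 were called after 5-FU (2469 with no filter, 825 with all groups joined, 1436 to 4803 over left-out tumors) and 1087 after cisplatin+ICB (2156 with DESeq2, 624 with no filter, 95 with the replicate block, 0 to 6277 over left-out tumors), so the background shares move with these choices. Precision is limited by groups of 4 or 5 tumors, and for Ccr8 in PBS (11 to 21 counts) also by depth.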
